A study of Mus musculus with 3 samples.

Results

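Cxcl10 encodes a small secreted chemokine and was 1 of 55357 genes listed in the count matrices of a single-cell study of injured mouse brain. It was chosen by its symbol, and followed by cell class, by the number of its transcripts in each cell, and by the genes found beside it in the same cell. Each of 3 groups gave 1 library of cells freed from the left brain around the lesion, and all mice were C57BL/6 males of 6 to 8 weeks. The groups were sham mice, mice with traumatic brain injury (TBI) given phosphate-buffered saline for 3 days (TBI+PBS), and mice with TBI given interleukin-25 (TBI+IL-25). In the last group each mouse got 1 µg of IL-25 within 30 minutes of the injury and then daily doses over 3 days. All groups are wild type as far as the labels say, and how many animals went into a library is not given in the labels. The series' title names CXCL-10-dependent regulation of the blood-brain barrier as its question.

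CXCL10 is released by glia, endothelium and myeloid cells and signals through the receptor CXCR3, which is carried mostly by activated T cells and natural killer cells. CXCL9 and CXCL11 are the other ligands of that receptor, and the 3 genes lie together in the genome. The gene is turned on by interferons through an interferon-stimulated response element (ISRE), and by NF-kappaB after tumour necrosis factor or Toll-like receptor signals. In the brain it is known from astrocytes and microglia in viral infection, injury and autoimmune inflammation.

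The sequence before the start of Cxcl10 is shown because it carries letters for both inputs. The 250 bases before the transcript start, from RefSeq on GRCm38.p6 at chr5:92348890-92349139 on the minus strand, read 5′ to 3′ with the matched motifs in capitals.
Cxcl10: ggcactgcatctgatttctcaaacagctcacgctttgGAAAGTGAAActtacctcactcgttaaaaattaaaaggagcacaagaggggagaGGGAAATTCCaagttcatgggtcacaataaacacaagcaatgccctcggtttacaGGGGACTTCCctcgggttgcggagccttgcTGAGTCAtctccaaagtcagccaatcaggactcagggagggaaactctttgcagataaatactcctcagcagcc
From left to right the capitals mark an ISRE core, GAAA then any 2 bases then GAAA, at 213 to 204 bases before the start, a kappaB motif, GGG then any 3 bases then TTCC, at 159 to 150, a further kappaB motif at 104 to 95, and an AP-1 motif, TGANTCA, at 74 to 68. Both strands were searched, and the AP-1 letters read the same on either strand. Among 27025 genes of the promoter table, 3.46% held the ISRE core, 5.31% the kappaB motif and 7.82% the AP-1 motif in a window of this length. Both the ISRE core and the kappaB motif stood in 42 genes, 0.155% of them. A match describes the letters and is no measurement of binding.

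The libraries held 8939, 10643 and 14222 barcodes for sham, TBI+PBS and TBI+IL-25, of which 8710, 10299 and 13532 were kept as cells, with a median of 4111, 4666 and 3841 unique molecular identifiers (UMIs, the count of distinct transcripts). Ribosomal RNA took 0.173%, 0.2003% and 2.03% of UMIs, and the software version in the file header also differed for TBI+IL-25, so that library stands apart in ways that cannot be told apart from its treatment. Between 24 and 39 barcodes were shared by any pair of libraries, and 1 barcode held 2 or more Cxcl10 UMIs in both TBI+PBS and TBI+IL-25. Since each group is 1 library, every value compares libraries and not conditions, without a replicate check, and no p-value is given. All intervals are 95% intervals and cover counting error only.

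Most Cxcl10 transcripts were in microglia-like and astrocyte-like cells. Over all cells the sham library held 474 Cxcl10 UMIs, the TBI+PBS library 5449 and the TBI+IL-25 library 18807, which is 12.5, 98.7 and 335 UMIs of the gene per 1000000 UMIs (CPM). Microglia-like cells gave 97.9%, 56.8% and 74.99% of these UMIs, in the same order, and astrocyte-like cells 1.48%, 27.3% and 21.8%. The classes rest on marker genes, 9 microglia markers such as P2ry12 and Tmem119 and 10 astrocyte markers such as Aqp4 and Slc1a3, and the clusters behind them were built without Cxcl10, Cxcl9 and Cxcl11.

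**Figure D1:**
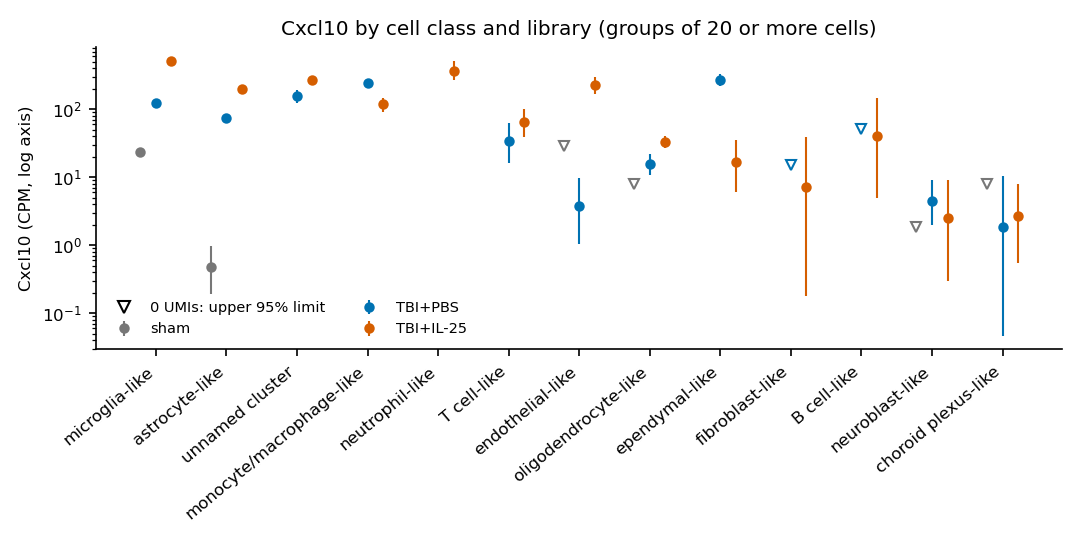
Cxcl10 level (CPM on a log axis) in each cell class, by library, for groups of 20 or more cells. Points are sums over the cells of 1 library, bars are exact Poisson 95% intervals (counting error only) and open triangles mark groups with 0 UMIs at their upper 95% limit. Microglia-like cells run from 23.6 CPM in sham over 123 in TBI+PBS to 505 in TBI+IL-25, while neuroblast-like and choroid plexus-like cells stay below 5 CPM.

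In microglia-like cells Cxcl10 stood at 23.6 CPM in sham (interval 21.5 to 25.9, 4999 cells), 123 CPM in TBI+PBS (118.7 to 127, 4596 cells) and 505 CPM in TBI+IL-25 (496.5 to 513, 5532 cells). The order of the 3 libraries was clear of the counting intervals. The level in TBI+PBS was 5.20 times that in sham (4.72 to 5.75), and the level in TBI+IL-25 was 4.10 times that in TBI+PBS (3.95 to 4.27). The level in TBI+IL-25 was 21.4 times that in sham (19.5 to 23.5). As background, genes at 2-fold or more with an interval above 1 were 6.59% of 14969 genes tested for TBI+PBS over sham, 11.2% of 15359 for TBI+IL-25 over sham and 5.75% of 15390 for TBI+IL-25 over TBI+PBS. Ranked by the lower bound of the interval, 121, 20 and 49 genes stood above Cxcl10 in these 3 comparisons.

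Astrocyte-like cells of sham held 7 Cxcl10 UMIs in 7 of 3284 cells, 0.475 CPM (0.191 to 0.978). No sham astrocyte held more than 1. The class held 1490 UMIs in TBI+PBS, 73.4 CPM (69.7 to 77.2, 4056 cells), and 4099 UMIs in TBI+IL-25, 199.9 CPM (193.8 to 206, 5450 cells). The TBI+PBS level was 155 times the sham level (74.8 to 385), a ratio that rests on those 7 UMIs and was 37.3 when cells scored as doublets were kept. The TBI+IL-25 level was 421 times the sham level (204 to 1048), or 112 with those doublets. Between the injured libraries the ratio was 2.73 (2.57 to 2.89), and 3.81 once cells with 10 or more microglia marker UMIs were left out. Here 6.84% of 16530, 11.6% of 16494 and 4.73% of 16701 genes were called higher by the same rule, and 11, 7 and 161 genes had a larger lower bound than Cxcl10. The clusters that hold most astrocyte-like cells differed between the libraries, clusters 4 and 2 in sham, 10 and 2 in TBI+PBS and 3 and 2 in TBI+IL-25. Likewise most microglia-like cells were in clusters 0 and 5 in sham, 0 and 1 in TBI+PBS and 1 and 6 in TBI+IL-25.

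Of the other classes, monocyte/macrophage-like cells of TBI+PBS stood above the microglia-like cells of that library by summed CPM, a level that rests on few cells. Their cluster was led by Arg1 and F13a1, and border-associated macrophage markers matched it second best. Recruited and border cells were not told apart. Monocyte/macrophage-like cells stood at 243 CPM in TBI+PBS (224 to 263, 248 cells) and 117 CPM in TBI+IL-25 (91.5 to 147, 107 cells). Of their 605 UMIs in TBI+PBS, 216 came from 1 cell and 206 from another, and the top 3 cells held 77.9%. Without the top cell the class stood at 157 CPM, against 116 CPM for microglia-like cells without theirs. The cell with 206 UMIs is still in that value, and the level without both was not computed. Those 2 cells held most of the 605 UMIs, so the place of the class above microglia-like cells rests on them. Monocyte/macrophage-like cells gave 11.1% of the TBI+PBS library's Cxcl10, with a UMI in 10.9% of cells and 2 or more in 6.05%. Their median depth was 9634 UMIs, against 4746 in microglia-like cells. Ependymal-like cells of TBI+PBS stood at 269 CPM because 1 of 29 cells held 106 UMIs. Without that cell they stood at 2.60 CPM. Endothelial-like cells, the lining of brain vessels, were at 0 UMIs in 36 sham cells, 3.79 CPM in TBI+PBS (4 single UMIs in 220 cells) and 227 CPM in TBI+IL-25, where 2 of 49 cells held all 48 UMIs. Neutrophil-like cells of TBI+IL-25 stood at 369 CPM over 47 cells, with 30 of 40 UMIs in 1 cell. Oligodendrocyte-like cells were at 0 UMIs in 45 sham cells, 15.6 CPM in TBI+PBS and 33.0 CPM in TBI+IL-25. In TBI+PBS 1 of 217 cells held 21 of 34 UMIs, and in TBI+IL-25 2 of 643 cells held 49 and 31 of 92.

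Neuroblast-like cells, young neurons, are set beside the others as a measure of free RNA, with choroid plexus-like cells given for comparison. Both held 0 UMIs in sham. Neuroblast-like cells stood at 4.53 CPM in TBI+PBS and 2.47 CPM in TBI+IL-25, and choroid plexus-like cells at 1.84 and 2.69 CPM. Oligodendrocyte-like and ependymal-like cells were planned as free RNA measures too. They stood at 15.6 and 269 CPM in TBI+PBS and at 33.0 and 16.4 CPM in TBI+IL-25, much of it in single cells. Without the top cell the levels were 6.07 and 2.60 CPM, and 15.5 and 5.56 CPM. The astrocyte-like levels of the injured libraries, 73.4 and 199.9 CPM, were above all of these but the 269 CPM that 1 ependymal-like cell gave. The sham astrocyte level of 0.475 CPM lies inside the sham neuroblast interval, whose upper limit at 0 UMIs is 1.87 CPM.

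Few cells held most of the transcripts. Among 4999 microglia-like cells of sham, 31 held 1 Cxcl10 UMI, 24 held 2 to 4, 17 held 5 to 9, 9 held 10 to 49 and 1 held 93. In TBI+PBS the same bins held 143, 60, 42, 89 and 9 of 4596 cells, with a highest cell of 185 UMIs. In TBI+IL-25 they held 451, 338, 266, 339 and 42 of 5532 cells, with a highest cell of 213. Cells with 0 UMIs were the majority of the class in every library, 4917, 4253 and 4096 cells.

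Within each injured library the concentration in single cells was stronger in astrocytes, where a smaller share of cells held the gene. Of 4056 astrocyte-like cells in TBI+PBS, 66 held 1 UMI, 11 held 2 to 4, 5 held 5 to 9, 14 held 10 to 49 and 9 held 50 or more, up to 295. In TBI+IL-25 the bins held 162, 41, 34, 55 and 24 of 5450 cells, up to 245. The top 1% of cells held 95.7% of the class's Cxcl10 UMIs in TBI+PBS and 79.6% of those of TBI+IL-25. The top 1% of microglia-like cells held 92.9%, 57.5% and 33.9% in sham, TBI+PBS and TBI+IL-25. Within each class, cells with 10 or more UMIs held 81.1% and 77.2% of the microglial Cxcl10 in TBI+PBS and TBI+IL-25, and 91.0% and 87.1% of the astrocyte Cxcl10.

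**Figure D2:**
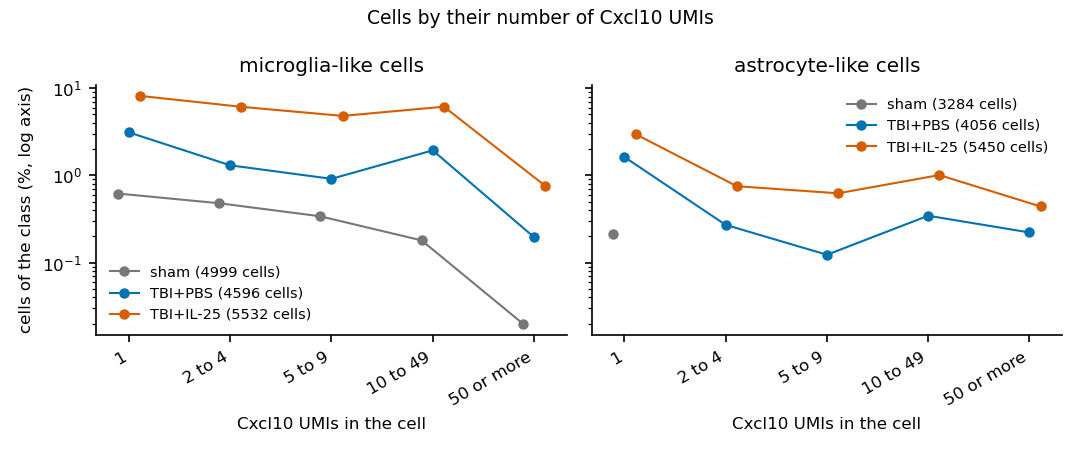
Share of microglia-like and astrocyte-like cells (%, log axis) with a given number of Cxcl10 UMIs, by library. Cells at 0 UMIs are not drawn and a bin with no cell has no point. In the injured libraries the bin of 10 to 49 UMIs is fuller than the narrower bin of 5 to 9, in both classes (89 against 42 and 339 against 266 microglia-like cells).

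The variance of Cxcl10 over its mean, the Fano factor, was 27.3, 39.5 and 44.7 in microglia-like cells of sham, TBI+PBS and TBI+IL-25. The 200 genes nearest in mean had medians of 1.06, 1.37 and 2.13, and 0, 1 and 0 of them lay above Cxcl10, the 1 being Lgals3. In astrocyte-like cells it was 136 and 78.6 in the injured libraries against medians of 1.26 and 1.55, with 0 of 200 above it. In sham astrocytes it was 0.998, the same as the median of its 200 neighbours.

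Both the number of holding cells and their content differed between libraries. Cells with 2 or more Cxcl10 UMIs, called holding cells below, were 1.02% of microglia-like cells in sham (51 cells), 4.35% in TBI+PBS (200 cells) and 17.8% in TBI+IL-25 (985 cells). These cells held on average 8.49, 14.8 and 13.9 Cxcl10 UMIs, at median depths of 4605, 8186 and 5777 UMIs, so the means of the injured libraries were reached at unequal depth. In astrocyte-like cells 0 cells of sham, 0.962% of TBI+PBS (39 cells) and 2.83% of TBI+IL-25 (154 cells) were holding cells, with a mean of 36.5 and 25.6 Cxcl10 UMIs at median depths of 7654 and 4187. Thinning each cell to 1000 UMIs, which left out 93, 60 and 161 shallower microglia-like cells, gave a share with any Cxcl10 UMI of 0.673%, 3.44% and 14.5%, against 1.64%, 7.46% and 26.0% unthinned. In astrocyte-like cells the thinned shares were 0.0352% (1 cell), 1.02% and 3.21%, after 444, 428 and 364 cells were left out, against 0.213%, 2.59% and 5.80% unthinned. In neuroblast-like cells the thinned share was 0% in every library, with upper limits of 1.54%, 1.48% and 2.76%. The sham and TBI+PBS limits lie above the astrocyte-like shares. Thinned to 2000 UMIs, the neuroblast-like share was 0%, 1.30% and 0.787%, against 1.46% and 4.63% in astrocyte-like cells of the injured libraries. The unthinned neuroblast-like share was 0%, 2.69% and 1.43%. Median depths were 6428, 5277 and 4688 UMIs, against 4511, 4679 and 3470 UMIs in astrocyte-like cells. The unthinned TBI+PBS astrocyte share is thus no higher than the neuroblast one. Ependymal-like cells, 29 and 49 in TBI+PBS and TBI+IL-25, had a UMI in 6.90% and 6.12%, at median depths of 11274 and 6696 UMIs. The astrocyte shares of both injured libraries are no higher than these, so cells with 1 UMI cannot be told from background there. Neuroblast-like cells held at most 2 UMIs.

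**Figure D3:**
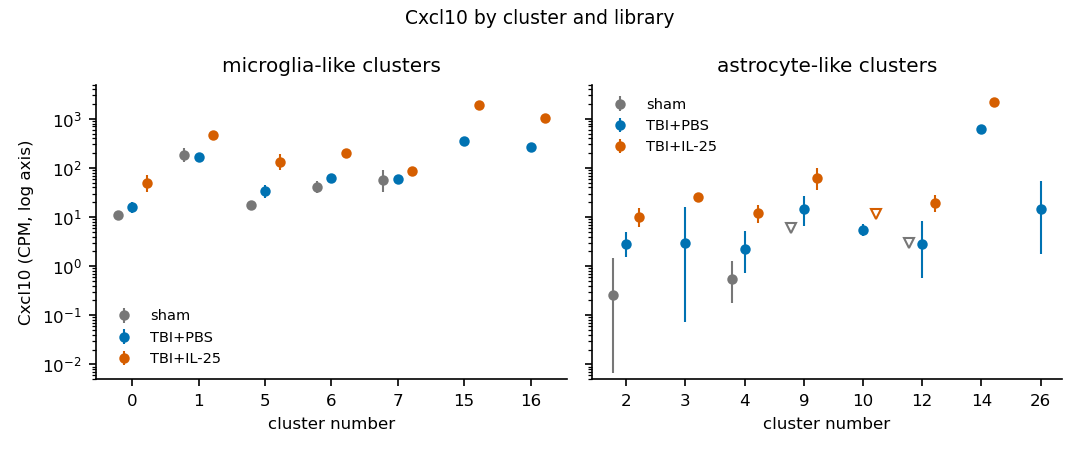
Cxcl10 level (CPM, log axis) in each microglia-like and astrocyte-like cluster with 20 or more cells of a library. Points are sums over cells, bars exact Poisson 95% intervals (counting error only) and open triangles the upper limit at 0 UMIs. Astrocyte cluster 14 stands at 630 CPM in TBI+PBS and 2212 CPM in TBI+IL-25, above every other astrocyte cluster drawn.

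Within astrocytes nearly all Cxcl10 lay in 1 cluster. Cluster 14, led by Lcn2 (lipocalin 2, a secreted protein of reactive astrocytes) and the interferon-induced GTPases Iigp1 and Gbp2, was 6.90% of the astrocyte-like cells of TBI+PBS and 6.15% of those of TBI+IL-25. It held 94.4% and 90.0% of the class's Cxcl10, at 630 CPM (597 to 663) and 2212 CPM (2141 to 2284). It held 1 cell of sham. Cluster 3, led by Fosl1 and Lif, was 51.8% of the TBI+IL-25 astrocytes and stood at 25.6 CPM there, and the other astrocyte clusters drawn lay between 0 and 61.6 CPM. Since the clusters were built on these cells, the genes that lead them are a description and no finding.

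Microglial Cxcl10 was spread over more clusters. In TBI+IL-25 cluster 1, led by Ccl12, Tnf, Ccl4 and Ccl3, held 51.8% of the class's Cxcl10 at 473 CPM. Cluster 15, led by Il1rn, Ch25h and Spp1, stood at 1872 CPM, cluster 16, led by the cell cycle genes E2f8 and Mki67, at 1031 CPM, and cluster 6 at 205 CPM. In TBI+PBS the same 4 clusters stood at 168, 345, 269 and 63.1 CPM. Clusters 0 and 5, which made up 52.1% and 40.0% of sham microglia, were at 11.2 and 17.5 CPM there, and at 48.7 and 134.5 CPM among the few TBI+IL-25 cells in them. Cluster 1 stood at 185 CPM in 34 sham cells (131.5 to 253) and at 168 CPM in 1015 TBI+PBS cells (159 to 177), levels whose intervals overlap.

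The partners of Cxcl10 in its axis were rare. Cxcl9, the interferon-gamma-induced ligand, had 0, 8 and 9 UMIs in microglia of sham, TBI+PBS and TBI+IL-25, and 0 in astrocytes of all 3 libraries. In TBI+PBS 17 Cxcl9 UMIs lay in 2 monocyte/macrophage-like cells. Cxcl11, which in C57BL/6 mice is known to carry a frameshift, was at 0.102 CPM in sham microglia, 0.318 CPM in TBI+PBS and 3.26 CPM in TBI+IL-25 (91 UMIs in 35 of 5532 cells). In astrocytes it stood at 1.76 CPM in sham (1.15 to 2.58, 26 cells with 1 UMI each), 0.739 CPM in TBI+PBS (0.413 to 1.22) and 1.02 CPM in TBI+IL-25 (0.634 to 1.57), levels whose intervals overlap. The receptor Cxcr3 was highest in T cell-like cells, at 154 CPM in 14 sham cells, 169.5 CPM in 65 TBI+PBS cells (126 to 223.5) and 85.1 CPM in 92 TBI+IL-25 cells (55.1 to 126). Ifng, encoding interferon gamma, was found in the same class at 28.0, 20.3 and 105.6 CPM and had 0 UMIs in microglia and astrocytes of every library. Ifnb1, encoding interferon beta, stood at 0.713, 1.75 and 41.6 CPM in microglia-like cells and at 0.136, 0.0492 and 1.12 CPM in astrocyte-like cells. Tnf stood at 18.4, 107 and 352 CPM in microglia-like cells.

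To find the genes beside Cxcl10, each holding cell was paired with the cell of the same class and library that had 0 Cxcl10 UMIs and the nearest total of other UMIs, within 5%. The UMIs of both sets were summed, and a gene with at least 20 UMIs was called higher at a CPM ratio of 2 or more, or lower at 0.5 or less, with the interval clear of 1. Pairs numbered 51, 200 and 982 for microglia-like cells of sham, TBI+PBS and TBI+IL-25, and 39 and 154 for astrocyte-like cells of TBI+PBS and TBI+IL-25. Sham astrocytes had no holding cell. Holding cells were deeper than the rest, with a median of 8186 UMIs against 4645 in cells without Cxcl10 for TBI+PBS microglia, and after matching the medians were 8186 and 8184. Such ratios compare cells within 1 library and are not tests. Because the minimum counts both sets together, a rare gene could reach it through the holding cells alone, and the counts of list members below are to be read with that.

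In microglia-like cells 91, 146 and 246 genes were called higher in sham, TBI+PBS and TBI+IL-25, which is 2.07% of 4392, 1.50% of 9745 and 2.01% of 12227 genes tested. Called lower were 103, 99 and 61 genes, 2.35%, 1.02% and 0.499%. Only 5 genes were called higher in all 3 libraries, Ifit1, Ifit2, Ifit3, Ifit3b and Isg15. The Ifit genes encode proteins that bind viral RNA, and Isg15 a ubiquitin-like protein, and all are classic interferon-stimulated genes.

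Ifit1 had 24 UMIs in the 51 sham holding cells and 1 in their matched cells, a ratio of 24.0 (3.91 to 987). It had 111 against 8 in TBI+PBS, 13.9 (6.80 to 32.9), and 415 against 79 in TBI+IL-25, 5.24 (4.11 to 6.76). The matched cells thus held more Ifit1 in the treated library, at 3.89, 4.48 and 12.9 CPM. Isg15 had 29 against 7 UMIs in sham, 223 against 64 in TBI+PBS and 902 against 368 in TBI+IL-25, ratios of 4.14, 3.48 and 2.45. Its intervals were 1.78 to 11.2, 2.63 to 4.68 and 2.17 to 2.77. The sham ratio of Isg15 was 0.767 when cells were matched within the same cluster. Ifit2 stood at ratios of 6.999, 7.58 and 3.19 and Ifit3 at 19.0, 5.54 and 3.07. In sham these ratios rest on few cells. Ifit3 was found in 3 holding cells, 5.88% of both sets, with 52.6% of its UMIs in 1 cell and a ratio of 9.15 without it. Isg15 was found in 13.7% of both sets and stood at 2.64 without its top cell, and Ifit2 in 6 holding cells, at 4.44 without its top cell. Ifit3 and Ifit3b are near-identical copies whose reads the counting could split or drop, so their separate values are uncertain.

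**Figure D4:**
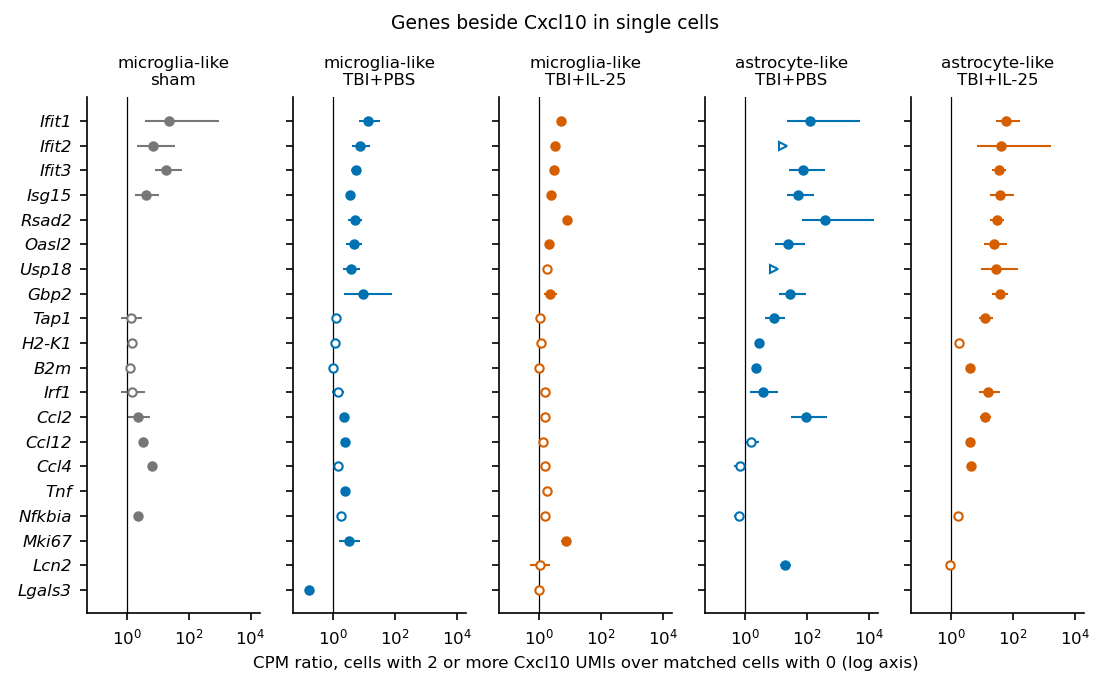
CPM ratio (log axis) of 20 genes in holding cells over matched cells with 0 Cxcl10 UMIs, for each class and library. Filled points are called, open points are not, bars are exact conditional 95% intervals (counting error only), and open triangles give the lower bound where the matched cells held 0 UMIs. A gene with fewer than 20 UMIs in the 2 sets has no point. The interferon-stimulated genes at the top lie right of 1 in every panel where drawn, while Tap1, H2-K1 and B2m do so by 2-fold or more in astrocyte-like cells only (H2-K1 in TBI+PBS alone).

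The list of 36 interferon-stimulated genes, 35 of which are among the listed symbols, was called higher for 7 of 11 members tested in sham, 21 of 31 in TBI+PBS and 13 of 32 in TBI+IL-25, and lower for 0. The median log2 ratio over the members tested was 2.74, 1.27 and 0.69, against −0.04, 0.00 and 0.00 over all genes tested. With no minimum of UMIs, 13 of 32, 22 of 33 and 13 of 35 members were called higher, with medians of 1.00, 1.27 and 0.73. In sham 1 cell weighed heavily. It held 93 Cxcl10 UMIs and 151 UMIs of the list, and without it 3 of 7 members tested were called higher, with a median of 0.70. Matched within the same cluster, sham gave 2 of 7 members with a median of −0.07, TBI+PBS 20 of 32 with 1.49 and TBI+IL-25 10 of 32 with 0.63.

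In sham 5 of 6 CC chemokines tested were called higher (Ccl2, Ccl12, Ccl9, Ccl3, Ccl4), and 2 of 7 cytokines (Il1b, Csf1), the latter list with a median log2 ratio of 0.26. Without the top cell of each gene, Ccl2 (21 UMIs in 4 holding cells) stood at 1.24 and Ccl9 at 1.78, below the fold used here. Ccl12, Ccl3 and Ccl4 stood at 2.44, 4.655 and 4.375 without theirs. Ccl3 and Ccl4, chemokines that attract monocytes and T cells, had 616 against 81 and 1086 against 166 UMIs, ratios of 7.60 (6.02 to 9.71) and 6.54 (5.55 to 7.75). They were found in 60.8% and 64.7% of holding cells and in 37.3% of matched cells each. Il1b, encoding interleukin-1 beta, had 47 UMIs against 1, in 3 holding cells, 59.6% of them in 1 cell, and Csf1, a growth factor of microglia, had 58.5% of its 41 UMIs in 1 cell. Cxcl2, a neutrophil chemokine, had 36 UMIs in 3 cells, 83.3% of them in 1 cell, against 0 UMIs, which is at least 12.0-fold higher. The NF-kappaB feedback genes Nfkbia, Nfkbiz and Tnfaip3 were called higher at 2.28, 2.28 and 3.50. Within the same cluster of sham, Ccl3 and Ccl4 stood at 4.26 and 2.95 and 0 of 8 NF-kappaB genes were called. Lipoprotein lipase, Lpl, stood at 9.20 (3.67 to 29.7) in sham, 50.0% of it in 1 cell, and Apoe at 2.99 (2.53 to 3.55).

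Of the 10 genes with the largest lower bound in TBI+PBS, 7 were on the interferon-stimulated list (Ifit3b, Cmpk2, Ifit1, Oasl1, Ifit2, Ifit3 and Rsad2), and the others were Ifnb1, Ccl5 and Vcam1. In sham 3 of the 10 were on that list. Cmpk2, a mitochondrial nucleotide kinase, had 30 UMIs in 9 holding cells against 0, at least 10.0-fold higher, and Oasl1 39 against 2, a ratio of 19.5 (5.05 to 167). Rsad2, encoding viperin, had 102 against 20 UMIs, 5.10 (3.14 to 8.70), and 2.71 without the cell that held 47.1% of it. Ccl5, a T cell chemokine, had 242 against 45, 5.38 (3.90 to 7.57), with 57.4% of it in 1 cell and 2.30 without that cell. Gbp2, Oasl2, Usp18 and Irf7 stood at 9.50, 4.64, 3.85 and 3.26. Vcam1, an adhesion molecule, stood at 6.56 (3.23 to 15.0). Ifnb1 had 20 UMIs in 5 holding cells, 65.0% of them in 1 cell, against 0 in the matched cells.

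Of 17 disease-associated microglia genes tested in TBI+PBS, 6 were called lower beside Cxcl10 (Fabp5, Spp1, Gpnmb, Itgax, Igf1, Lgals3), 1 higher (Ch25h) and 10 were not called, with a median log2 ratio of −0.30. The other libraries did not share this. In sham 5 of 8 members tested were called higher and 0 lower, with a median of 1.32. In TBI+IL-25 1 of 15 was called higher, Itgax, and 0 lower, with a median of 0.16. In TBI+PBS Spp1 (osteopontin) had 4760 UMIs in holding cells and 10866 in matched cells, a ratio of 0.438 (0.423 to 0.453). Lgals3 (galectin-3) stood at 0.165 (0.137 to 0.199) and Gpnmb at 0.0986 (0.0383 to 0.214). The other genes called lower with the smallest upper bound were Vim at 0.101 (0.0758 to 0.133), Mmp12 at 0.135 (0.107 to 0.168) and Cxcl2 at 0.134 (0.0945 to 0.185). Some of these differences lay between clusters. With matching inside each cluster, Lgals3 stood at 0.354, Vim at 0.274 and Cxcl2 at 1.05.

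In TBI+IL-25 the genes called highest were more mixed. Cxcl11, the neighbouring CXCR3 ligand, had 81 UMIs in 28 holding cells against 3 in matched cells, a ratio of 27.0 (8.90 to 133). Acod1, which makes itaconate in activated macrophages, had 37 against 2, 18.5 (4.76 to 158), and Il12b, a subunit of interleukin-12, 96 against 10, 9.58 (4.99 to 20.6). Rsad2 had 346 against 44, 7.85 (5.73 to 11.0). Mmp12, a macrophage elastase, had 110 against 9, but 87.3% of its UMIs were in 1 cell and without it the ratio was 1.56. Cxcl2 stood at 2.34 (2.06 to 2.67), or 1.92 without its highest cell, and Ifnb1 at 2.56 (2.17 to 3.04). Tnf and Ccl2 stood at 1.83 and 1.57, below the fold used here, while in TBI+PBS they stood at 2.44 and 2.34. Mmp12 and Cxcl2 thus lay on opposite sides of 1 in the injured libraries. That difference was not tested.

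Cell cycle genes went with Cxcl10 in TBI+IL-25 microglia by cluster. Ccna2 (cyclin A2) stood at 15.1 (6.69 to 42.3) and Mki67, a marker of dividing cells, at 7.45 (5.22 to 10.9), and 7 of 10 cell cycle genes were called higher, with a median log2 ratio of 2.22. Inside each cluster, 1 of 10 was called and the median was 0.40. In TBI+PBS 3 of 8 were called, and 0 of 9 within the same cluster. The dividing cluster 16 held 104 of the 985 holding cells.

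Art3, encoding an ADP-ribosyltransferase, spans Cxcl10 on the opposite strand of chromosome 5 (chr5:92331799-92414628, plus strand, with Cxcl10 at chr5:92346638-92348889, minus strand, GRCm38.p6). It had 162 UMIs in holding cells against 23 in TBI+IL-25, a ratio of 7.03 (4.53 to 11.4), and 21 against 7 in TBI+PBS, 3.00 (1.23 to 8.35). How reads were assigned to strands is not given in the sources used here. Whether reads of 1 of these genes were counted for the other was not tested.

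Several lists had 0 members called higher beside Cxcl10 in microglia. MHC class I presentation genes, which load peptides for cytotoxic T cells, were called higher for 0 of 10, 0 of 11 and 0 of 12 members tested, and Tap2 was called lower in sham. B2m and H2-K1 are abundant in these cells, and H2-D1 stood at 1.17 (0.914 to 1.501), 1.15 (1.05 to 1.27) and 1.06 (1.01 to 1.11). Of the interferon signalling genes tested, 0 of 9, 0 of 13 and 0 of 13 were called. Immediate early genes, which tissue digestion can induce, were called for 0 of 16, 0 of 18 and 0 of 19. Of 13 homeostatic microglia genes, 0 were called in each library, with medians of −0.24, −0.20 and −0.23, so their levels lay below those of matched cells by less than the fold used here. P2ry12, a receptor of resting microglia, stood at 0.708 (0.644 to 0.779) in sham and at 0.675 and 0.784 after injury.

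Genes called lower in TBI+IL-25 microglia were few and rare. Pf4, a platelet factor also made by border macrophages, had 7 UMIs against 51, and Ly6d, a B cell gene, 0 against 68, all in 0.102% of matched cells. Plac8 stood at 0.304 (0.212 to 0.426) and at 1.19 when classes were set by each cell's own marker score.

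Astrocytes that held Cxcl10 showed a broad interferon pattern. In them 232 genes of TBI+PBS and 243 genes of TBI+IL-25 were called higher, 3.98% of 5822 and 3.00% of 8099 genes tested, and 212 and 133 lower, 3.64% and 1.64%. Of those tested in both libraries, 80 were called higher in both, 35.4% of the TBI+PBS calls and 53.3% of the TBI+IL-25 calls, and 6 were called lower in both. These libraries share no control cells, since each holding cell was matched within its own library.

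Iigp1, a GTPase that attacks vacuoles of intracellular parasites, had 133 UMIs in 19 of 39 holding cells of TBI+PBS and 0 in the matched cells, at least 44.6-fold higher. In TBI+IL-25 it had 648 against 4, a ratio of 162 (63.0 to 596), and was found in 55.8% of holding and 1.30% of matched cells. Ifit3 had 226 against 3 UMIs in TBI+PBS, 75.7 (25.6 to 370), and 579 against 17 in TBI+IL-25, 34.1 (21.1 to 58.9). Rsad2 had 370 against 1 and 505 against 17, ratios of 372 (66.3 to 14727) and 29.7 (18.4 to 51.4). Isg15 was found in 71.8% against 5.13% of cells in TBI+PBS and in 49.4% against 2.60% in TBI+IL-25. In TBI+IL-25 microglia it was found in 29.8% of holding and 18.6% of matched cells. Gbp2, Igtp and Oasl2 stood at 28.5, 20.8 and 23.6 in TBI+PBS and at 36.3, 21.5 and 24.7 in TBI+IL-25.

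The interferon-stimulated list was called higher for 23 of 23 members tested in TBI+PBS and 26 of 26 in TBI+IL-25, with medians of 3.47 and 4.53 on the log2 scale. With no minimum of UMIs it was 28 of 35 and 30 of 32, with medians of 3.15 and 3.91. Matched within the same cluster, which pairs holding cells with other cells of the Lcn2 and Iigp1 cluster, 24 of 24 and 24 of 26 were called, with medians of 2.83 and 2.35. The ratios themselves were smaller there, with Ifit1 at 13.8 and 5.79 against 125 and 60.2. Iigp1 stood at 11.1 and 5.41, Gbp2 at 6.42 and 4.21, Igtp at 11.2 and 6.96 and Oasl2 at 5.18 and 3.22. That cluster held 34 of the 39 holding astrocytes of TBI+PBS and 111 of the 154 of TBI+IL-25, so the ratios over the whole class partly compare clusters.

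MHC class I genes went with Cxcl10 in astrocytes. The presentation list was called higher for 10 of 10 members tested in TBI+PBS and 10 of 11 in TBI+IL-25, with medians of 2.23 and 2.03. Tap1, which carries peptides into the endoplasmic reticulum, had 76 against 9 and 215 against 17 UMIs, ratios of 8.49 (4.24 to 19.3) and 12.6 (7.71 to 22.1). H2-D1 stood at 6.23 and 3.00 and B2m at 2.29 and 4.08. Irf1, an interferon-induced transcription factor, stood at 3.69 and 15.5, and 5 of 10 and 6 of 11 signalling genes tested were called. Cd274, encoding the checkpoint ligand PD-L1, had 27 against 1 and 99 against 0 UMIs. The NF-kappaB list was called higher for 1 of 6 members tested and 0 of 9, with 1 lower in TBI+IL-25, and Nfkbia stood at 0.615 and 1.58.

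Chemokines for monocytes were also found in these astrocytes. Ccl2 had 269 UMIs against 3 in TBI+PBS, a ratio of 90.1 (30.5 to 440), with 64.3% of it in 1 cell and 33.2 without that cell. In TBI+IL-25 it had 367 against 29, 12.7 (8.66 to 19.2). Ccl7 had 246 against 0, at least 82.4-fold higher, and 224 against 26, 8.61 (5.73 to 13.5). Smaller ratios were found when cells were matched within the same cluster. For TBI+PBS, Ccl2 then stood at 9.63 (6.51 to 14.8) and Ccl7 at 7.25 (5.05 to 10.7). For the treated library, Ccl2 then stood at 3.355 (2.68 to 4.23). The larger ratios over the whole class thus partly compare clusters. The CC chemokine list was called for 2 of 5 members in TBI+PBS and 5 of 5 in TBI+IL-25. Ccl3, Ccl4 and Ccl12 are made mostly by microglia, so microglial RNA is a measure to set beside them. The 9 microglia markers summed to 1696 CPM in holding and 1769 CPM in matched astrocytes of TBI+PBS, and to 1096 and 817 CPM in TBI+IL-25, against 19182 and 15368 CPM in holding microglia. The median was 3 and 3, and 1 and 1, marker UMIs per cell. Without astrocytes holding 10 or more such UMIs, the interferon-stimulated list was called for 22 of 22 and 26 of 26 members tested, with medians of 3.53 and 4.44 against 3.47 and 4.53 with them, and the CC chemokine list for 5 of 5 and 3 of 5.

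The reactive astrocyte list went with Cxcl10 in TBI+PBS by cluster. Lcn2 had 464 UMIs against 24, a ratio of 19.4 (12.9 to 30.6), Serpina3n stood at 7.96 and Timp1 at 5.19, and 7 of 12 members were called. In TBI+IL-25 Lcn2 had 147 against 159, 0.924 (0.734 to 1.16), Serpina3n stood at 3.56, and 1 of 11 members was called. Within the same cluster 0 of 12 were called higher in each library, and Lcn2 stood at 1.18 in TBI+PBS. Gfap, the filament protein of reactive astrocytes, stood at 1.56 and 1.28.

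The 6 genes called lower in both libraries were Agt, Nrarp, Rcor3, Ing2, Fdxr and 5031439G07Rik. Agt (angiotensinogen) had 48 against 98 and 76 against 198 UMIs, ratios of 0.492 (0.341 to 0.702) and 0.384 (0.291 to 0.502). Nrarp, a Notch feedback gene, stood at 0.475 and 0.398, Rcor3 at 0.232 and 0.459, Ing2 at 0.335 and 0.488, and Fdxr at 0.314 and 0.500. With matching inside each cluster, Agt stood at 1.37 and 1.08 and Nrarp at 4.34 and 1.49, so their lower level lay between clusters. Il11 was lower in TBI+IL-25 alone, at 0.321 (0.222 to 0.455), and stood at 1.53 within clusters.

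The amount of Cxcl10 in a cell and its interferon-stimulated transcripts were set side by side over all cells. In TBI+IL-25 astrocytes the 35 genes summed to 372 CPM in cells with 0 Cxcl10 UMIs, 825 CPM at 1 UMI, 2947 CPM at 2 to 4, 4750 CPM at 5 to 9, 6624 CPM at 10 to 49 and 12607 CPM at 50 or more. In TBI+PBS astrocytes the same bins gave 227.5, 631.5, 997, 1814, 7673 and 16777 CPM. Each step in both libraries was upward and clear of the counting intervals. The number of cells per bin in TBI+PBS was 3951, 66, 11, 5, 14 and 9, and the median per cell was 895 CPM at 2 to 4 UMIs and 870.5 CPM at 5 to 9, so the middle bins did not step up by that measure. Homeostatic microglia genes, a measure of microglial RNA, summed to 1352 CPM in TBI+PBS astrocytes with 0 Cxcl10 UMIs and 5387 CPM in those with 50 or more, and to 848 and 2661 CPM in TBI+IL-25. Between these ends they did not move in 1 direction, with 1642 and 551 CPM at 10 to 49 UMIs. Their part in the rise was not tested. The median over cells in TBI+IL-25 astrocytes went from 0 CPM in cells with 0 Cxcl10 UMIs to 14692 CPM in cells with 50 or more.

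**Figure D5:**
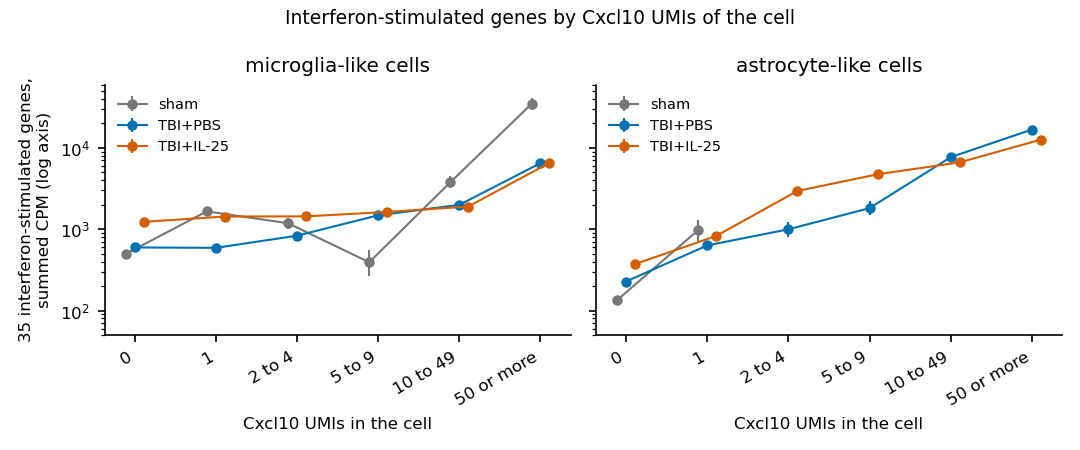
Summed CPM (log axis) of 35 interferon-stimulated genes in cells binned by their Cxcl10 UMIs, by class and library. Points are sums over the cells of a bin and bars exact Poisson 95% intervals (counting error only). The sham microglia point at 50 or more UMIs is 1 cell. Astrocyte-like cells step up through every bin to 16777 CPM in TBI+PBS and 12607 CPM in TBI+IL-25, while TBI+IL-25 microglia stay between 1231 and 1898 CPM up to 49 UMIs and reach 6534 CPM above.

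In microglia the steps were smaller. TBI+IL-25 microglia gave 1231 CPM at 0 UMIs, 1430 at 1, 1437 at 2 to 4, 1631 at 5 to 9, 1898 at 10 to 49 and 6534 at 50 or more (42 cells). Their median per cell was 874 CPM at 0 UMIs, between 1041 and 1110 CPM in the bins from 1 to 49 UMIs and 3100 CPM above. TBI+PBS microglia gave 597, 590, 832, 1481, 1990 and 6481 CPM, with medians per cell between 355 and 561 CPM in every bin, so a minority of cells carried the sums. Tnf in TBI+IL-25 microglia stood at 269, 354, 520, 530, 652 and 1217 CPM over the same bins, and the 9 CC chemokines at 11622, 13907, 14925, 16120, 19181 and 32717 CPM. Homeostatic microglia genes stepped down over these bins, from 20490 CPM at 0 UMIs over 18741, 18437, 17551 and 15643 to 12526 CPM at 50 or more, and in TBI+PBS they summed to 28867 CPM at 0 UMIs and 17557 CPM at 50 or more.

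Cells with Ifnb1 and cells with Cxcl10 overlapped in part. In TBI+IL-25 microglia 334 cells held an Ifnb1 UMI, and 105 of these were holding cells for Cxcl10, 31.4% of the Ifnb1 cells (26.5 to 36.7) and 10.7% of the Cxcl10 holding cells (8.80 to 12.8). Holding cells were 17.8% of that class. The median Cxcl10 count in Ifnb1 cells was 0. In TBI+PBS 5 of 20 Ifnb1 cells were holding cells, and in sham 0 of 11, which allows a share of up to 28.5%.

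The genes called in microglia and in astrocytes overlapped in part. Of the genes tested in both, 31 were called higher in TBI+IL-25 microglia and 213 in TBI+IL-25 astrocytes, with 17 in both, 54.8% of the microglial and 7.98% of the astrocyte calls. Over all genes tested in both, 2.87% were called in astrocytes and 0.418% in microglia. In TBI+PBS 38 and 175 were called, with 20 in both, 52.6% and 11.4%, where 3.43% and 0.746% of all genes tested in both were called in astrocytes and microglia. Between TBI+PBS and TBI+IL-25 microglia 40 genes were called higher in both, 27.4% of 146 and 34.5% of 116, where 1.50% and 1.19% of the 9738 genes tested in both were called.

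The promoters of the genes found beside Cxcl10 were searched with the same letters. Of the 80 genes called higher in both astrocyte sets, 62 had a promoter in the table and 21 of these (33.9%) held the ISRE core, against 3.46% of all genes in the table. For the 5 microglial genes it was 4 of 5, all but Ifit2. Among promoters of genes tested, 3.20% held it in TBI+IL-25 astrocytes and 3.27% in TBI+IL-25 microglia, and among those called higher 17.65% and 9.44%. In TBI+PBS it was 3.21% and 3.31% of those tested and 18.0% and 12.4% of those called higher, and in sham microglia 3.30% and 8.22% (6 of 73). The kappaB motif stood in 9.63% and 6.67% of those called higher in TBI+IL-25 astrocytes and microglia, against 6.02% and 6.16% of those tested, and in 11.05% and 10.5% in TBI+PBS, against 6.17% and 6.13%. In sham microglia it stood in 17.8% (13 of 73) against 6.37% of those tested. Of the 62 promoters of genes called higher in both astrocyte sets 17.7% held it. Among genes called lower the kappaB motif stood in 2.56%, 17.1% and 3.125% in microglia of sham, TBI+PBS and TBI+IL-25. In astrocytes of TBI+PBS and TBI+IL-25 it stood in 6.06% and 7.92% of those called lower. In TBI+PBS microglia the motif was thus more frequent among genes called lower (13 of 76) than among those called higher. The windows show the ISRE core, in capitals with 8 bases on each side and read along the gene, of 7 genes called higher in both astrocyte sets, the first 4 of which were also called in all microglia sets. Capitals starting with TTTC are the motif on the opposite strand.
Ifit1, chr19:34640777-34640802, plus strand: ggcttcagTTTCACTTTCcagtctca
Ifit3, chr19:34583365-34583390, plus strand: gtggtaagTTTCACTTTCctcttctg
Ifit3b, chr19:34607761-34607786, plus strand: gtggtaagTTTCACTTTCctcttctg
Isg15, chr4:156200873-156200898, minus strand: aggaaaagGAAACCGAAAcagaaaat
Rsad2, chr12:26456555-26456580, minus strand: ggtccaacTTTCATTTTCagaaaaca
Gbp2, chr3:142620596-142620621, plus strand: tcttttagTTTCACTTTCactgtctt
Igtp, chr11:58199514-58199539, plus strand: taggaactGAAACTGAAAgctgttcg
The windows of Ifit3 and Ifit3b are letter for letter the same. The letters TTTCACTTTC of Ifit1, Ifit3, Ifit3b and Gbp2 are the reverse complement of GAAAGTGAAA in Cxcl10. Coordinates are those of RefSeq on GRCm38.p6, while the submitters' processing notes name GRCm39 for the counts.

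Over whole classes rather than single cells, the genes whose levels followed Cxcl10 most closely were other genes than the interferon-stimulated list. Over 29 groups of a class and library with at least 20 cells, the highest Pearson r of log2(CPM + 1) among 15162 genes were 0.779 for Sgpl1 (sphingosine-1-phosphate lyase), 0.771 for Ccl12, 0.751 for Tnf, 0.742 for Atf3, 0.735 for Gna13 and 0.734 for Nfkbiz. The groups share libraries and differ in depth, so these values are a description. Over 18 groups of at least 50 cells 0 of the 6 were still among the top 6, and with Spearman's rho 3 were.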

How the data were processed

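Single-cell 3′ RNA libraries (10x Genomics V3.1 chemistry, per the labels) were deposited by the authors as raw UMI counts per gene and barcode, 1 library per group. Per the file headers Cell Ranger 7.1.0 made the sham and TBI+PBS matrices and 7.2.0 the TBI+IL-25 matrix, and the submitters' processing notes name bcl2fastq 5.0.1, Cell Ranger 7.2.0, Seurat 4.4.0 and GRCm39. Read filters and strand settings are not given in the sources used here. The genes, lists and members were chosen with earlier results of these data known.

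Barcodes under 500 UMIs or 300 genes, or above 20% mitochondrial UMIs, were dropped (18, 43 and 55). Scrublet's own threshold called 4 sham cells, so a doublet score above 0.2 removed 211, 301 and 635. Cells were clustered in scanpy 1.11.5 (2000 variable genes without Cxcl10, Cxcl9 and Cxcl11, 30 components, 15 neighbours, Leiden resolution 1) into 27 clusters, which marker lists named as 13 classes. A cluster needed at least 3 markers. CPM is summed UMIs per 1000000. Level intervals are exact Poisson, ratio intervals conditional binomial, share intervals Clopper-Pearson. A ratio against 0 UMIs used a floor of 3 counts over the matched set.

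Named genes are the 10 called highest and 5 lowest per set, genes called in every library of a class, and list members, of which some are not reported here. Promoters and coordinates are RefSeq GRCm38.p6. Matching and calling were run on simulated Poisson counts drawn from the pooled profile of a class and library. Cells there differed in depth and in the folds set for holding cells only. The simulation thus cannot show how calls behave where few cells hold most UMIs of a gene. Python 3.11.15, SciPy 1.17.1 and Matplotlib 3.10.9 were used.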

Additional observations from a re-analysis of the deposited data

Results flagged for a closer look

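By summed CPM, Cxcl10 was lower in TBI+IL-25 than in TBI+PBS in 2 classes. It was higher in microglia-like, astrocyte-like, endothelial-like and oligodendrocyte-like cells. The ratio was 0.482 (0.372 to 0.616) in monocyte/macrophage-like cells, and 0.497 without the top cell of each library. The latter value still includes a TBI+PBS cell with 206 of 605 UMIs, and a ratio without it was not computed. That cell and the top cell held most of the TBI+PBS UMIs of the class, so the lower TBI+IL-25 level rests largely on them. Shares of cells went the other way. A UMI was found in 16.8% of the TBI+IL-25 cells (10.3 to 25.3) against 10.9% for TBI+PBS (7.30 to 15.4), with overlapping intervals. Holding cells were 9.35% against 6.05%. In ependymal-like cells the ratio was 0.0609 (0.0219 to 0.137), and 2.14 without the top cell of each library, since 1 cell of TBI+PBS held 106 of 107 UMIs. With 1 library per group the difference between classes was not tested.

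A shallow cluster that got no class name, led by Hspb1, S100a10 and Mt2, also held Cxcl10. It had 154 CPM (125 to 188) in 467 cells of TBI+PBS, with a median of 1015 UMIs per cell, and 266 CPM (238 to 297) in 1237 cells of TBI+IL-25, with a median of 787 UMIs. It held 1 cell of sham. Holding cells with 2 or more Cxcl10 UMIs numbered 14 and 38 there, with up to 26 and 31 UMIs in a cell. The neuroblast-like and choroid plexus-like levels in the same libraries were between 1.84 and 4.53 CPM, and the oligodendrocyte-like levels 15.6 and 33.0 CPM.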

How the results depend on the processing

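No paired analysis was possible because each group is 1 library, and for the same reason no replicate could be left out. Of 118 alternative values of the main results 80 stayed within the counting interval, or near the main value for counts of genes, 38 moved further and 0 reversed. Of 949 values for named genes 808 stayed so, 132 moved and 9 reversed. The causes were not tested.

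Weighing cells equally gave microglial Cxcl10 ratios of 3.98 (TBI+PBS over sham), 18.2 (TBI+IL-25 over sham) and 4.56 (TBI+IL-25 over TBI+PBS), and 2.93 for astrocytes of the injured libraries. Without the cell of most Cxcl10 in each class and library, a setting chosen after seeing the data, these were 6.12, 26.3, 4.30 and 3.19. Classing every cell by its own marker score gave 3.83 for microglia and 3.29 for astrocytes, TBI+IL-25 over TBI+PBS. Keeping doublets gave astrocyte ratios of 37.3, 112 and 2.99. Leaving out cells with 10 or more marker UMIs of the other class gave 3.81 for astrocytes.

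Counts of genes called higher depended on the minimum. With at least 100 UMIs per gene they were 15, 28 and 81 in microglia and 48 and 59 in astrocytes, and with no minimum 170 in sham. Holding cells of 5 or more UMIs gave 48 in sham. Up to 5 controls per cell gave 142 in sham and 407 in TBI+IL-25 astrocytes. Matching within the same cluster gave 58 in sham and 80 in TBI+IL-25 microglia.

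Matched within the same cluster, these ratios lay on the other side of 1: Isg15 at 0.767 in sham microglia, Cxcl2 at 1.05 in TBI+PBS microglia, Agt at 1.37, Nrarp at 4.34 and Thrsp at 1.17 in TBI+PBS astrocytes, and Agt at 1.08, Nrarp at 1.49 and Il11 at 1.53 in TBI+IL-25 astrocytes. Plac8 stood at 1.19 in TBI+IL-25 microglia with marker-score classes.

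Shares of cells with a Cxcl10 UMI depend on depth. Thinned to 2000 UMIs they were 1.14%, 4.72% and 19.6% in microglia of sham, TBI+PBS and TBI+IL-25, and 1.46% and 4.63% in astrocytes of the injured libraries. Unthinned they were 1.64%, 7.46% and 26.0%, and 0.213%, 2.59% and 5.80%. Of the 6 genes most like Cxcl10, 0 were named again with groups of at least 50 cells and 3 with Spearman's rho.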
